A study of Mus musculus with 8 samples.

Results

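Rab proteins are small GTPases that mark membrane compartments and direct vesicle traffic, and their genes were followed here in mouse dorsal root ganglia (DRG), which hold the cell bodies of the neurons that sense touch, heat and pain. The family was taken as every gene whose symbol is Rab followed by a number, with at most 1 letter and 1 digit after it. That rule reads names alone, and it found 59 of the 40800 gene identifiers in the deposited table. Whole DRG RNA came from 4 wild-type C57BL/6 mice (numbered 1, 3, 4 and 8) and 4 homozygous Tmem184b gene-trap mutants on the C57BL/6 background (numbered 1 to 4), all aged 6 months. A trap of this kind diverts splicing into an inserted cassette so that the transcript is cut short, and it is carried by every cell of the mouse, not by neurons alone. How many ganglia went into a sample is not given in the sources used here. Tmem184b encodes a transmembrane protein, and the comparison asks how its loss changes the RNA of the ganglion.

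A Rab protein cycles between a GDP-bound form, held in the cytosol by GDP dissociation inhibitors, and a GTP-bound form on a membrane. Guanine nucleotide exchange factors load GTP, GTPase-activating proteins end the active state, and effectors such as motors, tethers and fusion factors bind the active form. Prenyl groups on cysteines at the C-terminus anchor the protein. In sensory neurons, whose axons reach far from the cell body, Rab proteins serve synaptic and dense-core vesicle release, transport of signalling endosomes from the periphery, and recycling of receptors and channels.

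The family is held together by the loop that grips the phosphates of the nucleotide, and the codons of that loop are shown for 8 of the genes described below. They were read from GENCODE M21 transcripts on GRCm38, 5′ to 3′, with capitals on the codon of the first glycine and on the glycine, lysine and serine or threonine codons at the end.
Rab27a: GGAgactctggggtaGGGAAGACC
Rab15: GGGgactccggggttGGCAAGACA
Rab3d: GGGaacagcagcgtgGGCAAGACA
Rab3a: GGGaacagcagcgtgGGCAAAACC
Rab6b: GGGgagcagagcgtcGGGAAGACG
Rab7: GGGgactctggtgttGGAAAGACC
Rab8b: GGCgactccggcgttGGCAAGACC
Rab21: GGGgaaggctgcgtgGGGAAGACG
This loop was found in the main protein of 57 of the 59 genes, with Rab40b and Rab40c as the exceptions to the pattern searched. A cysteine stood within the last 5 residues in 59 of 59. The tail ended in cysteine, any residue, cysteine in 20 genes, in 2 adjacent cysteines in 15, in 2 adjacent cysteines followed by 2 or 3 other residues in 12, and in another arrangement in 12. The tail codons of Rab27a, gggttgTGTggcTGT, and of Rab15, aagaccTGCtggTGC, show the first of these forms, with the cysteine codons in capitals. Protein length ran from 194 to 973 residues with a median of 215.

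Each library held 6183618 to 7983821 reads, and a single read stood for 0.125 to 0.162 CPM, a level scaled to the total of its library. Tmem184b itself averaged 171 CPM in wild type and 6.65 CPM in mutants, a log2 difference of -4.64, and the groups did not overlap (exact two-sided permutation p = 0.0286, the smallest that 4 against 4 can give). All 8 sensory neuron markers checked were detected in every sample, as the tissue label calls for. Of 15030 genes tested with limma, 820 (5.46%) had an adjusted p under 0.05 and are said below to be called, 423 higher and 397 lower in mutants. That split moved to 257 higher and 604 lower with a GC trend removed, to 204 and 706 with each library centred on its median, and to 271 and 422 with quantile normalization. The median log2 difference over all tested genes was 0.07. Below, a log2 difference is mutant minus wild type on the deposited moderated log2 CPM, which understates the change of genes with few reads, and CPM values are levels computed from the recovered reads.

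Rab27a, Rab27b and Rab15 fell in Tmem184b mutant ganglia, and no Rab gene was called higher. Rab27a dropped to 62.5% of its wild-type level, Rab27b to 71.9% and Rab15 to 84.0%. The remaining 50 of the 53 Rab genes with enough reads for a test were not called. The 3 calls make up 5.66% of the 53, against 5.46% of all genes tested (2.64% called lower and 2.81% called higher), a share close to the background. The shares were 11.3% against 5.73% with a GC trend removed, 11.3% against 6.05% with each library centred on its median and 10.2% against 6.21% with genes above 1 log2 CPM. Its median log2 difference was -0.02, with 25 positive and 28 negative values.

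Rab27a and Rab27b are close relatives that bring secretory and lysosome-related granules to the plasma membrane, where Rab27a links melanosomes to their myosin motor and both take part in exosome and granule release. Rab27b was at 109, 116, 118 and 130 CPM in wild-type mice 1, 3, 4 and 8 and at 76.6, 97.2, 89.6 and 76.7 CPM in mutants 1 to 4. The highest mutant stayed below the lowest wild type. The group means were 118 ± 8.90 and 85.0 ± 10.2 CPM (SD, n = 4 each), and the log2 difference was -0.48 (SE 0.083, limma adjusted p = 0.00449).

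Rab27a, less abundant than its relative per length of transcript (9.31 ± 0.957 against 15.7 ± 1.18 CPM per kb in wild type, SD, n = 4), showed the larger log2 difference. It was at 29.2, 27.3, 27.6 and 33.8 CPM in wild-type mice 1, 3, 4 and 8 and at 18.7, 24.6, 15.2 and 15.2 CPM in mutants 1 to 4. Mutant 2 was the highest mutant for both Rab27 genes and wild-type mouse 8 the highest wild type for both, and in neither gene did the groups overlap. The means were 29.5 ± 3.03 and 18.4 ± 4.43 CPM, and the log2 difference was -0.69 (SE 0.139, limma adjusted p = 0.0107). Whether the 2 genes differ from each other in size of change was not tested. In whole ganglia, fewer cells of a type that uses a gene and less of its RNA in each cell cannot be told apart.

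Rab15 acts on early and recycling endosomes, where it slows the return of internalized receptors, and it is known from neural tissue. Its levels were 240, 242, 228 and 237 CPM in wild-type mice 1, 3, 4 and 8 and 189, 201, 205 and 200 CPM in mutants 1 to 4. This was a small shift between 2 tight groups, with means of 237 ± 6.45 and 199 ± 6.78 CPM. The log2 difference was -0.25 (SE 0.051, limma adjusted p = 0.0113).

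The 3 calls were kept in each of the 8 fits that left out 1 mouse. They were lost when limma was run without the mean-variance trend, where 142 of all genes were called in place of 820. The adjusted p was then 0.074 for Rab27b, 0.090 for Rab27a and 0.091 for Rab15. In that fit 0.945% of all genes and 0% of the 53 Rab genes were called. With the trend, 9 of the 53 Rab genes and 3206 of all 15030 genes had an unadjusted limma p under 0.05.

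Marker genes of several cell types moved in the same comparison, in which 2.64% of all genes were called lower and 2.81% higher. The summed level of 8 sensory neuron markers was 11848 to 12755 CPM in wild type and 11576 to 11702 CPM in mutants. Of the 8, 5 were lower and 3 higher in mutants, and Avil and Scn10a were called, both lower. Scn10a averaged 1925 CPM in wild type and 1411 CPM in mutants. The 3 higher ones were Nefh (2662 and 2905 CPM), Tubb3 (2593 and 2701 CPM) and Isl1 (70.2 and 75.8 CPM), none of them called. For 6 markers of nonpeptidergic nociceptors, a list taken with results of these data known, the sum was 1280 to 1402 CPM in wild type and 708 to 1025 CPM in mutants, and 6 of 6 were called lower. The 5 satellite glia markers summed to 725 to 850 CPM in wild type and 890 to 1202 CPM in mutants (2 called higher), and 6 Schwann cell markers to 2419 to 3162 and 2856 to 3437 CPM (2 called higher). Immune markers summed to 36.6 to 58.2 CPM in wild type and 50.7 to 81.5 CPM in mutants (Cd163 called higher), and fibroblast markers to 367 to 643 and 515 to 742 CPM (Dcn called higher). Lower by log2 difference among the tested glial, immune and fibroblast markers were Pmp22 of Schwann cells (-0.06) and Cd68 of immune cells (-0.19), neither called. Skeletal muscle markers ran from 2.86 to 31.4 CPM in wild type and from 9.41 to 149 CPM in mutants, with none called but 4 of 4 tested higher at an unadjusted p under 0.05 in limma. Endothelial, red blood cell, central nervous system and adipocyte markers gave no call, and the wild-type and mutant sums of each list overlapped. None of these lists had a marker at 0 in every sample. The part of these shifts in the fall of Rab27a, Rab27b and Rab15 was not tested.

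**Figure D1:**
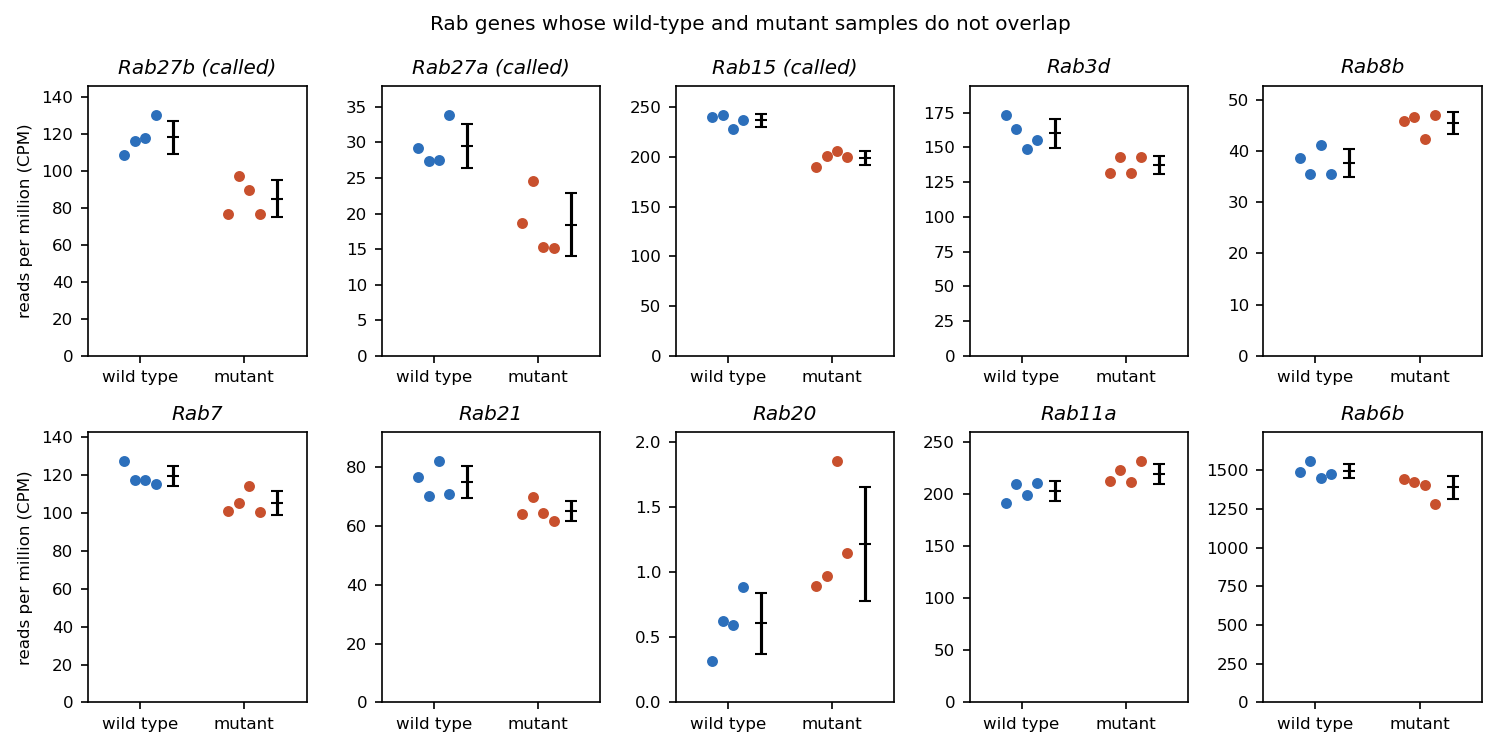
Level in CPM (linear axis from 0) of the 10 Rab genes whose 4 wild-type samples (blue points) and 4 mutant samples (orange points) do not overlap, with mean and SD beside each group in black. Lower in mutants are 7 and higher 3, and the first 3 panels, Rab27b, Rab27a and Rab15, are the called genes.

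Groups did not overlap in 10 of the 53 tested Rab genes (18.9%), against 12.4% of all tested genes. Of these 10 Rab genes, 7 were lower and 3 higher in mutants. Over all 15030 tested genes, 739 did not overlap and were lower, and 1127 did not overlap and were higher. Beside the 3 called genes the 10 were Rab3d, Rab7, Rab21 and Rab6b on the lower side and Rab8b, Rab20 and Rab11a on the higher side, none of which passed the adjusted threshold. They are described here by their values.

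Rab3d and Rab8b came closest to the threshold. Rab3d, a Rab of secretory granules, was at 173, 163, 149 and 155 CPM in wild-type mice 1, 3, 4 and 8 and at 131, 143, 132 and 143 CPM in mutants 1 to 4 (log2 difference -0.22, SE 0.062, limma adjusted p = 0.0512). Rab8b, which steers vesicles to the cell surface, was at 38.6, 35.6, 41.2 and 35.5 CPM in wild type and at 45.9, 46.7, 42.3 and 47.0 CPM in mutants (log2 difference 0.27, SE 0.076, limma adjusted p = 0.0530). Wild-type mouse 4 had the lowest wild-type value of Rab3d and the highest of Rab8b, and without it both were called (limma adjusted p = 0.0351 for each). That fit gave 5 Rab calls in all (9.43% of those tested, against 6.16% of all genes). With all 8 samples, Rab3d was also called with a robust variance trend (limma adjusted p = 0.0450), with log2 of CPM plus 1 (0.0492) and with genes above 1 log2 CPM (0.0483), and in this last fit Rab8b was called too (0.0493). Without mutant 3, the lowest mutant for Rab8b, that gene was called as well (limma adjusted p = 0.0422).

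Among endosomal Rabs, Rab7 directs late endosomes to lysosomes and carries neurotrophin signalling endosomes along axons, and Rab21 takes part in integrin uptake. Rab7 was at 127, 118, 117 and 115 CPM in wild-type mice 1, 3, 4 and 8 and at 101, 105, 114 and 100 CPM in mutants 1 to 4 (log2 difference -0.18, limma adjusted p = 0.0962). Mutant 3 lay just below the lowest wild type. Rab21 was at 76.5, 70.3, 81.9 and 71.0 CPM in wild type and at 64.1, 69.9, 64.5 and 61.8 CPM in mutants (log2 difference -0.20, limma adjusted p = 0.108), with mutant 2 next to wild-type mouse 3. Rab21, Rab3d and Rab7 were all called lower once a GC trend was removed or each library was centred on its median. Each of these fits gave 6 Rab calls, all lower (11.3% of those tested, against 5.73% and 6.05% of all genes).

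Rab20, a Rab of phagosomes and endosomes, had the largest positive log2 difference of the family, 0.75, at very few reads. It was at 0.318, 0.626, 0.593 and 0.884 CPM in wild-type mice 1, 3, 4 and 8 and at 0.896, 0.970, 1.85 and 1.14 CPM in mutants 1 to 4, which is 2 to 12 reads per library (SE 0.322, limma adjusted p = 0.193). The top wild type and the bottom mutant were nearly level. Rab11a, the main Rab of recycling endosomes, was at 192, 210, 199 and 211 CPM in wild type and at 212, 223, 211 and 231 CPM in mutants (log2 difference 0.11, limma adjusted p = 0.261). Here too the groups only just parted.

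**Figure D2:**
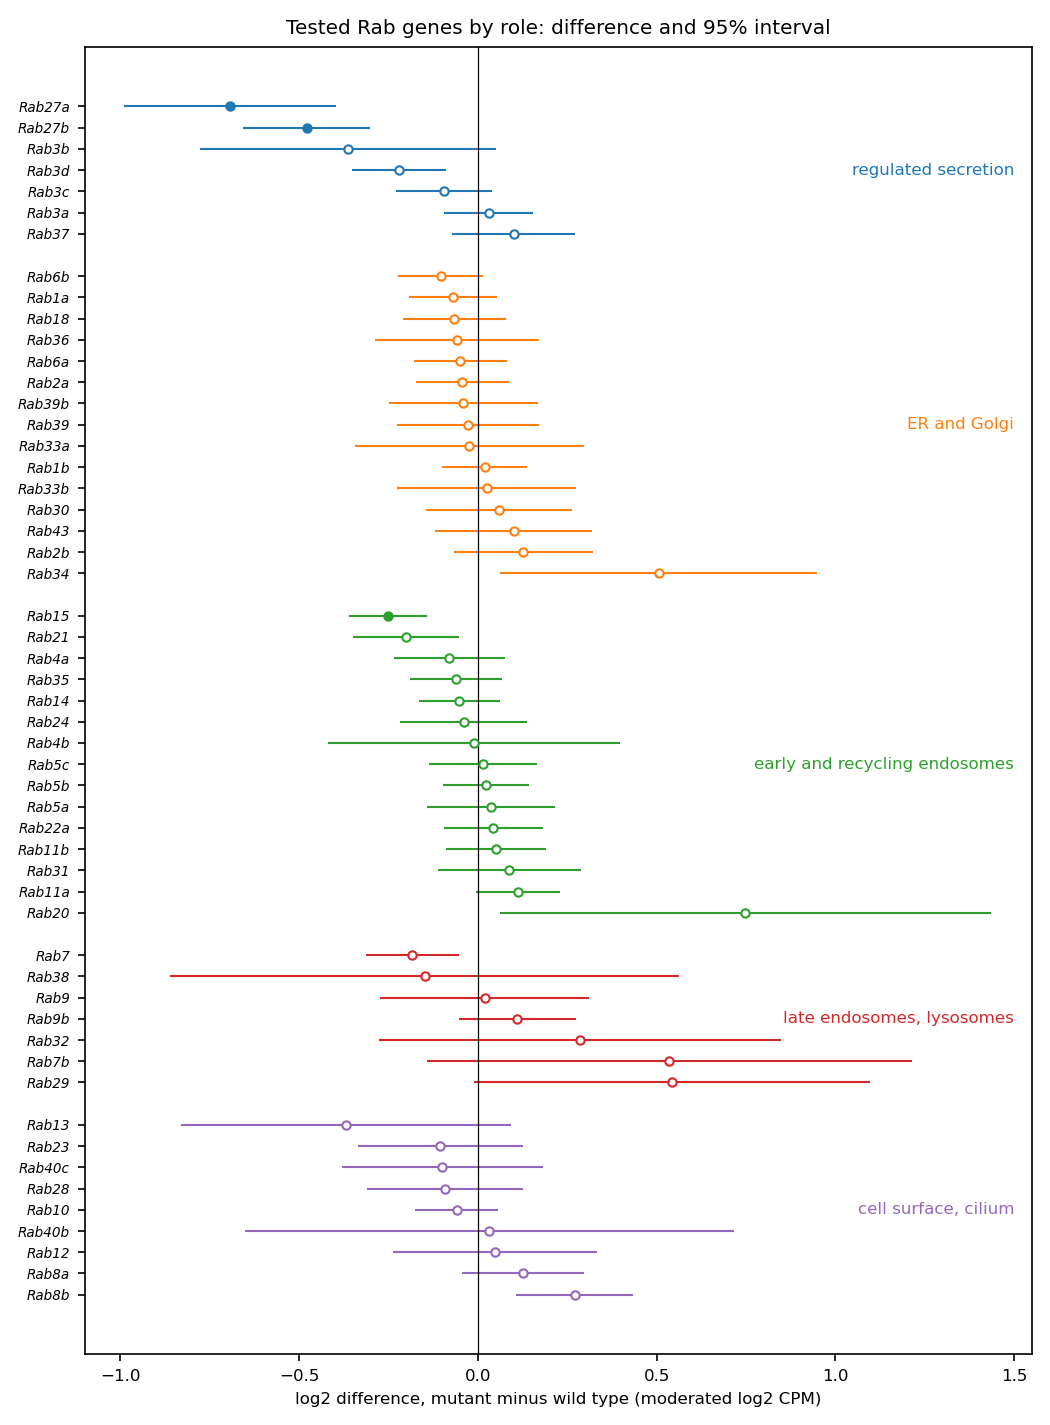
Log2 difference (mutant minus wild type, moderated log2 CPM) with its 95% confidence interval from limma for the 53 tested Rab genes, grouped by role, with filled points for the 3 called genes. Rab27a, Rab27b and Rab15 lie lowest in their groups, and most of the other intervals cross 0.

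Grouped by role, the Rabs of regulated secretion held 2 of the 3 calls. Of 9 such genes 7 were tested and 2 were called lower (2.64% of all genes were), with a median log2 difference of -0.22 against 0.07 over all tested genes. With so few members the share is a description, and the role was not tested as a group. The other tested members were Rab3d, described above, Rab3b at -0.36 (SE 0.194, limma adjusted p = 0.304), Rab3c at -0.10 (SE 0.063), Rab3a at 0.03 (SE 0.058, limma adjusted p = 0.813) and Rab37 at 0.10 (SE 0.080). Rab3a, the Rab of synaptic vesicles, was at 340, 382, 341 and 384 CPM in wild-type mice 1, 3, 4 and 8 and at 387, 355, 357 and 377 CPM in mutants 1 to 4, so its groups overlapped throughout. Its difference was -0.01 with a GC trend removed and -0.06 with median centring.

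The Rabs of the endoplasmic reticulum (ER) and Golgi gave no call among 15 tested genes, where 5.46% of all genes were called. Their median log2 difference was -0.03, with a range from -0.10 to 0.51. Rab6b, the neuron-enriched Golgi Rab, was at 1491, 1556, 1448 and 1475 CPM in wild-type mice 1, 3, 4 and 8 and at 1446, 1424, 1406 and 1283 CPM in mutants 1 to 4. Mutant 1 and wild-type mouse 4 were almost level, and the log2 difference was -0.10 (SE 0.055, limma adjusted p = 0.302). Rab6a, its ubiquitous relative, differed by -0.05 (SE 0.061) and by 0.01 under quantile normalization. Rab1b, which acts between ER and Golgi, differed by 0.02 (SE 0.056), by -0.03 with a GC trend removed and by -0.07 with median centring.

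Early and recycling endosomal Rabs included Rab15 as the only call among 15 tested genes (6.67%, against 5.46% of all genes), and their median log2 difference was 0.01. Rab5a, the early endosome Rab, was at 68.5 to 86.1 CPM in wild type and at 69.6 to 87.5 CPM in mutants, with a log2 difference of 0.04 (SE 0.084), -0.04 with a GC trend removed and -0.06 with median centring. Rab35, a fast recycling Rab, was at 59.2 to 62.8 and 57.4 to 59.5 CPM (log2 difference -0.06, SE 0.060, limma adjusted p = 0.604). Late endosomal and lysosomal Rabs (7 tested, median 0.11) and Rabs of the cell surface and cilium (9 tested, median -0.06) held no call. Over the 53 tested genes the 95% interval of the log2 difference lay wholly within 0.5 either way for 42, so that a change beyond that size fell outside the interval for those genes.

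In all, 6 Rab genes had too few reads for a test. Rab17 and Rab25 had at most 1 read in any library, Rab19 and Rab42 at most 2, and Rab44 at most 6. Rab26, a Rab of secretory granules and synaptic vesicle turnover, had 2, 1, 2 and 4 reads in wild-type mice 1, 3, 4 and 8 and 5, 4, 2 and 9 reads in mutants 1 to 4. When limma was run with no filter on low values none of the 6 was called, with adjusted p from 0.338 for Rab26 (log2 difference 0.74, SE 0.354, unadjusted p = 0.0495) to 0.753. Rab17, Rab19, Rab25 and Rab42 stayed below 3 reads, taken as the floor of detection, in every library.

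**Figure D3:**
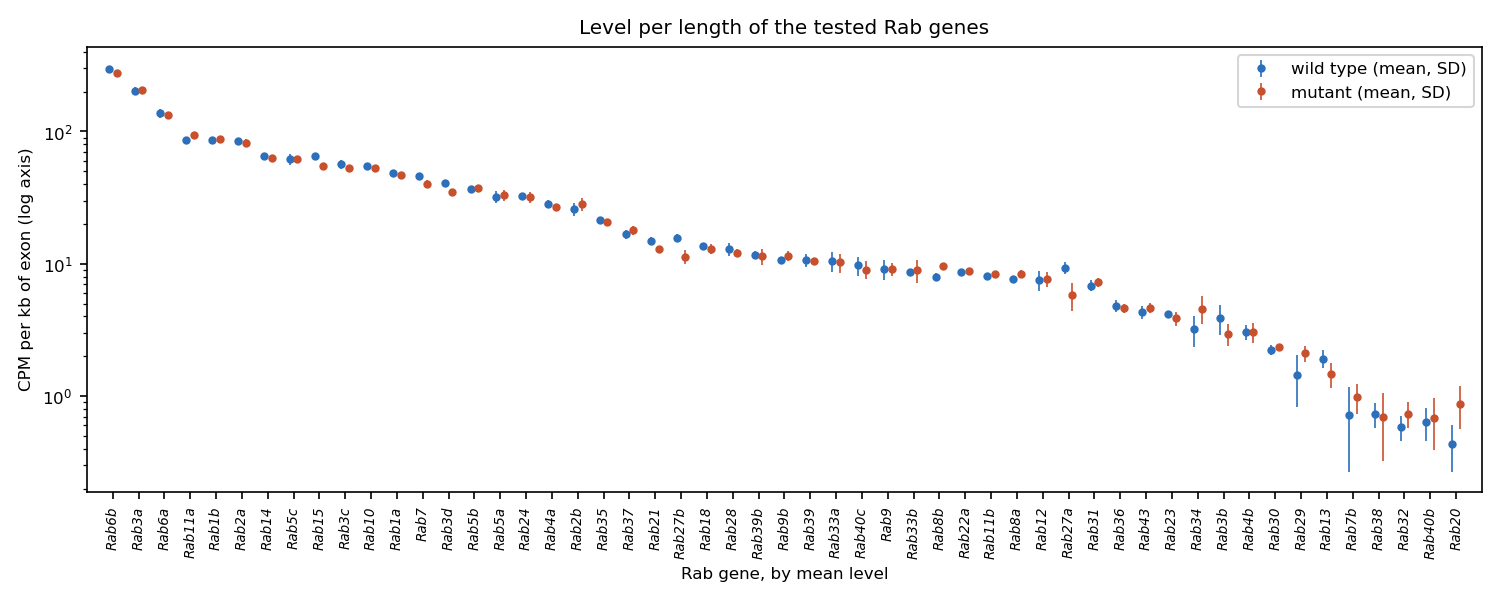
Level per length (CPM per kb of exon, log axis) of the 53 tested Rab genes in order of mean level, with wild-type (blue) and mutant (orange) mean and SD over 4 samples each. Rab6b stands highest, Rab3a and Rab6a follow, and Rab27b, at rank 23, and Rab27a, at rank 38, have mutant means below the wild type.

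Per length of exon, Rab6b, Rab3a and Rab6a led the family in these ganglia. Rab6b was at 297 ± 9.16 CPM per kb in wild type, Rab3a at 202 ± 13.6, Rab6a at 138 ± 10.9, Rab11a at 86.9 ± 3.98 and Rab1b at 86.3 ± 2.78 (SD, n = 4 each). Steps between the first 4 exceeded their SD, whereas Rab11a, Rab1b and the next gene, Rab2a at 84.4 ± 3.90, did not differ beyond their spread in wild type. Rab6b alone took 25.0% of all reads that fell on Rab genes.

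All Rab genes together summed to 5763, 5991, 5777 and 6039 CPM in wild-type mice 1, 3, 4 and 8 and to 5577, 5696, 5596 and 5664 CPM in mutants 1 to 4. The mutant sum was 95.6% of the wild-type sum, and the 4 mutants lay below the 4 wild types. Rab6b contributed -103 CPM to the difference in means, Rab15 -38.0, Rab3c -33.3, Rab27b -33.2 and Rab3d -22.9, and Rab11a 16.5. Without Rab6b the ranges were 4272 to 4564 CPM in wild type and 4131 to 4381 CPM in mutants and overlapped. The sum of the 8 sensory neuron markers given above moved the same way, with its mean going from 12222 to 11624 CPM, although 3 of the 8 were higher in mutants. Scn10a had the largest change in CPM of the 8, with its mean dropping from 1925 to 1411. The fall of the marker sum therefore lay largely in Scn10a and does not show a general fall of these markers. The part of these markers in the Rab sum was not tested.

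The genes that run the Rab cycle, or partner genes, were close to all tested genes by looser measures. An unadjusted limma p under 0.05 was found for 35 of 160 tested partner genes, against 3206 of all 15030. Groups did not overlap in 13.8% of them, against 12.4%. Called higher were 3 of the 160 and called lower 1 (2.50%, against 5.46% of all genes), and their median log2 difference was 0.04. Of these 4 calls, Mical1 and Lrrk2 were kept in each of 8 fits that left out 1 mouse. Fyco1 was lost without wild-type mouse 1 or 3 or mutant 1 or 2 (limma adjusted p up to 0.0821), which left 2 partner calls, and Dennd1c was lost in all 8 fits (0.0623 to 0.117). Without the variance trend Mical1 (0.0713), Lrrk2 (0.0938) and Fyco1 were not called, and Fyco1 and Dennd1c were not called with a GC trend removed, median centring or quantile normalization. Escort, prenylation and dissociation inhibitor genes gave none of 13. Rabggta, a subunit of the enzyme that prenylates Rabs, was at 31.2 ± 1.49 CPM in wild type and 30.9 ± 3.003 CPM in mutants (SD, n = 4 each, limma adjusted p = 0.948). GTPase-activating proteins gave no call of 38 (median 0.00), and Rab-like genes outside the family rule none of 7.

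Exchange factors gave 1 call of 48 (2.08%, against 5.46% of all genes), with a median log2 difference of 0.10. An unadjusted limma p under 0.05 was found for 16 of the 48, against 3206 of all 15030 genes. The call was Dennd1c, at 3 to 5 reads per wild-type library and 8 to 10 per mutant library (log2 difference 1.04, SE 0.284, limma adjusted p = 0.0465). Its mutant samples, where it was higher, were enough to carry it past the filter on low values. It was not called when limma was run with no filter. Madd, the exchange factor shared by Rab3 and Rab27 proteins, was at 236 ± 12.6 CPM in wild type and 224 ± 8.63 CPM in mutants (log2 difference -0.07, SE 0.056, limma adjusted p = 0.505). Effectors gave 3 calls of 54 (5.56%, against 5.46% of all genes). Mical1, an actin-oxidizing enzyme that binds Rabs of the Rab8 group, fell from 84.2 ± 6.70 to 55.0 ± 9.87 CPM (log2 difference -0.62, SE 0.104, limma adjusted p = 0.00365). Fyco1, which couples Rab7 vesicles to kinesin, rose from 24.9 ± 2.25 to 32.4 ± 2.12 CPM (log2 difference 0.38, SE 0.090, limma adjusted p = 0.0248). Lrrk2, a kinase that phosphorylates Rab8, Rab10 and related Rabs and is recruited by Rab29, rose from 97.2 ± 3.71 to 125 ± 12.7 CPM (log2 difference 0.36, SE 0.071, limma adjusted p = 0.0107).

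Known binders of Rab27 among the effectors gave no call of 9 tested, while Sytl5 and Rph3al were not tested. With 5.46% of all genes called, no call among so few genes is a description only. An unadjusted limma p under 0.05 was found for 3 of the 9, against 3206 of all 15030 genes. Rph3a, the most abundant of them by reads, was at 679 ± 27.3 CPM in wild type and 631 ± 42.8 CPM in mutants (log2 difference -0.11, SE 0.058, limma adjusted p = 0.308). The differences of the 9 ran from -0.67 for Exph5 (SE 0.258, limma adjusted p = 0.147) to 0.99 for Sytl1 (SE 0.307, limma adjusted p = 0.0743, and 0.0482 without wild-type mouse 4), both below 6 CPM in each library. Myrip, which joins Rab27a to myosin, differed by 0.25 (SE 0.124) and Sytl2 by 0.10 (SE 0.065).

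**Figure D4:**
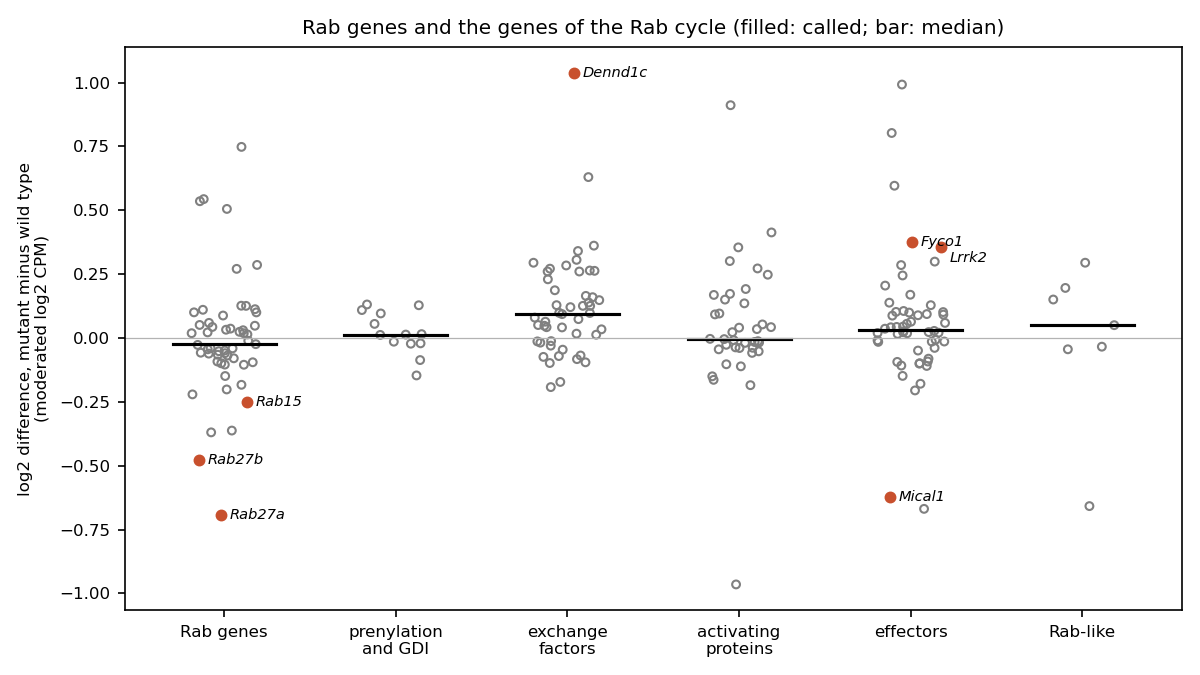
Log2 difference (mutant minus wild type, moderated log2 CPM) of each tested Rab gene and each tested gene of the Rab cycle, 1 point per gene, with called genes filled and named and the median as a bar. The called Rab genes all lie below 0, and of the called partners Mical1 lies below and Dennd1c, Fyco1 and Lrrk2 above.

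Positions in GRCm38 (GENCODE M21), which is not the build named in the submitters' notes, were taken for Rab27a and Rab15. Rab27a lies on the plus strand at chr9:73044854-73097629 and Rab15 on the minus strand at chr12:76797960-76822908. Rab15 overlaps Fntb on the other strand, and Rab27a overlaps the pseudogene Gm27186 on its own strand, with which it shares 155 bases at 99.4% identity. Gm27186 had at most 1 read in any library. Among the 59 genes 12 shared a stretch of at least 150 bases at 95% identity or more with another gene, including Rab7 with Rab7-ps1 and Rab8b with Gm20689, and their levels are uncertain to the extent that reads were split. Rab27a and Rab27b shared no such stretch. Whether counting used the strand is not given in the sources used here, so reads from Rab15 and Fntb may not have been told apart where they overlap.

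RefSeq promoter entries (GRCm38.p6, 250 bases before to 50 after the start) matched 48 of the 59 genes and 60 starts. The start with the most CG pairs is shown for Rab27a and Rab15, since both fell (the promoter of Rab27b was not used here), 5′ to 3′ on the gene's strand, with capitals on GGGCGG or its reverse complement CCGCCC, the core of the Sp1 motif. The windows are chr9:73044560-73044859 on the plus strand for Rab27a and chr12:76822475-76822774 on the minus strand for Rab15.
Rab27a: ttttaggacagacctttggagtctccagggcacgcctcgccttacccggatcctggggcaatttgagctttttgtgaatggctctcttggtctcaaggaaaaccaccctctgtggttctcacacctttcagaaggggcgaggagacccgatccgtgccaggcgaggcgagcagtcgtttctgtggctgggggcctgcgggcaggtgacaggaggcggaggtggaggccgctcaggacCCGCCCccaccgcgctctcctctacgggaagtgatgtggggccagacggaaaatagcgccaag
Rab15: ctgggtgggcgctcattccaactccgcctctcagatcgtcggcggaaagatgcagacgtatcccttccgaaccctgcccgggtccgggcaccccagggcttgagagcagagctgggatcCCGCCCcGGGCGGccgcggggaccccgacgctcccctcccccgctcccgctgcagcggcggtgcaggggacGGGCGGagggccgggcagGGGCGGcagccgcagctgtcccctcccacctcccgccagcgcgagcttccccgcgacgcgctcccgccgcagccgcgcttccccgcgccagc
The Rab27a window holds 1 match and the Rab15 window 4. GGGCGG on either strand was in 68.3% of the 60 Rab promoters and in 35.7% of all 32851 promoters in the table. The cAMP response element core TGACG was in 43.3% against 20.8%, CCAAT in 43.3% against 37.4%, the E-box CACGTG in 6 of the 60 against 7.15% of all, and the TATA box TATAAA in 6.67% against 13.6%. All 5 motifs were searched on both strands and can overlap one another. Several starts can belong to 1 gene, and a match is a description of letters, not of binding.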

How the data were processed

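Moderated log2 CPM of 8 mouse DRG RNA samples were deposited by the authors, as log2 of CPM moderated by a small prior, per the file headers and values; the GC content of each gene, in percent, came with them as deposited. Per the submitters' processing notes, mm9, Salmon 0.11.1 and DESeq2 were named, with no role given. The table's 41422 lines held 40800 identifiers, and 402 repeated ones carried equal values and were used once. Reads were recovered from the steps of the values (0 reads is -1.79, the prior averaged 2 reads, and 100.0% of values were whole within 0.01 of a read). Reads are not independent molecules, so floors cover counting error only. Running numbers in the column names set mutants apart from wild types, and a batch in them cannot be told apart from genotype.

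Groups were compared with limma 3.58.1 in R 4.3.3 (a two-sided test without covariates, lmFit and eBayes, its variance prior following the mean) on genes above 0 log2 CPM in at least 4 of 8 samples, with Benjamini-Hochberg adjustment over all 15030. The fit was tested on simulated reads whose spread beyond counting error was equal in every gene, with no batch, a simpler setting than these data. Named Rab genes were those called, those whose groups do not overlap, the 5 highest per exon length, those at the detection floor and textbook Rabs of sensory neurons; of partner lists, the called genes, with a few of known role added after their values were seen. The members and lists were chosen with earlier results of these data known. The 20 alternatives were filters, a pseudocount, scalings, GC, an Xist covariate, variance models, voom, the replicate block and each sample left out. Replicate numbers 1, 3 and 4 occur in both groups, but same-numbered samples did not deviate together and were not paired. Stretches shared between transcripts were found with blastn 2.17.0.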

Additional observations from a re-analysis of the deposited data

How the results depend on the processing

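Of the 20 alternatives, Rab27a and Rab27b were called in 19 and Rab15 in 17. Against 3 Rab genes called, all lower, 6 were called, all 6 lower, with a GC trend removed and with median centring, 5 (1 of them higher) with genes above 1 log2 CPM, and 0 without the variance trend. The median Rab difference of -0.02 became -0.080 with GC removed and -0.12 with centring, as the median of all genes went from 0.07 to 0.00 and -0.03. Of partner genes, 4 became 8 with centring and 2 with quantile normalization and without the variance trend. Of all genes, 6.05% were called with centring, 4.61% with quantile normalization and 0.945% without the variance trend. Leaving out each mouse in turn gave 3 to 5 Rab calls, 0 to 1 higher and 3 to 4 lower, medians of -0.04 to 0.01, and 2 to 6 partner calls. Over these fits 5.66% to 9.43% of tested Rab genes were called. The share of all genes called ran from 2.69% without wild-type mouse 1 to 6.22% without mutant 3. Signs turned for Rab3a (-0.014), Rab1b (-0.032) and Rab5a (-0.043) with GC removed, for Rab3a (-0.062), Rab1b (-0.074) and Rab5a (-0.056) with centring, and for Rab6a (0.011) with quantile normalization. Leaving out each mouse in turn, Rab1b ranged from -0.016 to 0.042 (negative without mutant 4 or wild-type mouse 1) and Rab5a from -0.020 to 0.097 (negative without mutant 4 or wild-type mouse 4); none of these was called. The cause of these changes was not tested. Genes of few reads, such as Rab20, are limited by depth.

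Same-numbered samples (1, 3 and 4) correlated at 0.0806, 0.0414 and 0.0575, so the numbers were not taken as pairs. With the replicate block on these 6 samples 2 Rab genes were called, with Rab15 at a difference of -0.26 (limma adjusted p = 0.0580), and 2 partner genes. The same 6 samples with no replicate block gave 2 Rab calls, Rab15 at a limma adjusted p of 0.0540, and 2 partner genes. The Rab calls were 3.77% of those tested in both fits, against 4.46% of all genes with the block and 2.97% with no block.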
